A study of Mus musculus with 105 samples.

Results

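Ifnlr1, Il22ra1 and Myom3 are neighbouring genes on mouse chromosome 4, and they are described here together with the other interferon receptor chains Il10rb, Ifnar1, Ifnar2, Ifngr1 and Ifngr2. The 8 genes were taken by symbol from the raw count table, out of 53379 gene rows. They were chosen by their counts in Setdb1 knockout against control tumour cells, a comparison already known when they were picked. Their values in that comparison are therefore a description, without a test, whereas the other comparisons were tested.

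Interferons and the cytokines of the IL-10 family signal through pairs of class II cytokine receptor chains. Ifnlr1 encodes the ligand-specific chain for type III interferons (interferon lambda) and Il22ra1 the ligand-specific chain for IL-22, and both pair with the shared chain encoded by Il10rb. Ifnar1 and Ifnar2 form the receptor for type I interferons, and Ifngr1 and Ifngr2 that for interferon gamma. Responses to interferon lambda and IL-22 are known mainly from epithelial cells, whereas the type I and gamma receptors are found on most cells. Myom3 has no part in cytokine signalling and encodes myomesin 3, a structural protein of the M-band of the muscle sarcomere.

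The study sequenced polyadenylated RNA from healthy tissues, melanocyte cultures and tumour cell lines of the mouse, all labelled C57BL/6. Setdb1, a histone methyltransferase that silences transposable elements and some genes, was knocked out in B16 and B16OVA melanoma, MCA101OVA fibrosarcoma and MC38 colon adenocarcinoma cells. The groups labelled Setdb1KO are called KO, and they stand beside groups labelled Ctrl and WT. Each of these groups has 3 libraries, or 6 in B16OVA, which makes 45 libraries in all, and every tumour line was grown in medium with puromycin. Further groups are 5 melanocyte cultures from newborn mice and 12 tissues of female WT mice with 4 libraries each. The labels do not say what the Ctrl cells carry, what OVA stands for, or whether libraries of 1 group were separate cultures or clones, so the spread behind each p-value is that between libraries and may be technical.

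Read depth was 17186211 to 50393024 counts per library in the 45 tumour libraries, 19863405 to 30593253 in melanocytes and 53591239 to 254103370 in tissues. Levels are given on the counts-per-million scale of that total (CPM). Setdb1 itself averaged 17.1 CPM in B16 KO and 62.2 CPM in B16 Ctrl, 33.5 CPM in B16OVA KO and 70.4 CPM in B16OVA Ctrl, and 27.9 CPM in MCA101OVA KO and 68.0 CPM in MCA101OVA Ctrl. It was lower in KO in these 3 lines (edgeR quasi-likelihood test with Benjamini-Hochberg adjustment over all tested genes, adjusted p = 9.8e-05, 0.000217 and 0.00749 in that order). In MC38 the cells labelled Setdb1KO had 73.2 ± 12.7 CPM and Ctrl cells 100.8 ± 39.8 CPM (SD, n = 3 each), a difference that did not pass the test (adjusted p = 1.0 from edgeR). The melanocyte genes Pmel, Mlana, Dct, Tyr and Tyrp1 summed to 13430 to 30610 CPM in every B16 and B16OVA library, and 6 epithelial genes to at most 5.32 CPM there. MCA101OVA and MC38 libraries had 454 to 1926 CPM of the epithelial list, with Krt8 and Krt18 the only 2 of its genes at 1 CPM or more, and at most 24.2 CPM of the melanocyte list. In 5 of the 45 libraries the level fell with gene length (slope of log2 CPM on log2 exonic length under -0.15). They are B16 KO replicate 2, B16OVA Ctrl replicate 2, MCA101OVA Ctrl replicate 2 and B16OVA WT replicates 2 and 5, and KO against Ctrl folds are given with and without them, as are the WT contrasts that hold 1 of them.

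On GRCm38 the 3 chromosome 4 genes all lie on the plus strand, in the order Ifnlr1 (chr4:135686287-135708181), Il22ra1 (chr4:135728172-135752140) and Myom3 (chr4:135759715-135815564). A gap of 19990 bases separates Il22ra1 from Ifnlr1, and 7574 bases separate Myom3 from Il22ra1. Ifnar2 (chr16:91372783-91405589), Il10rb (chr16:91406164-91425834), Ifnar1 (chr16:91485238-91507441) and Ifngr2 (chr16:91547072-91565623) form a second run of neighbours on chromosome 16, and Ifngr1 stands alone (chr10:19591949-19610229). Exons of Gm21970 overlap 14.9% of the exonic bases of Il10rb and 9.46% of those of Ifnar2 on the same strand, so counts of these genes are less certain. None of the 8 genes has an antisense gene over its exons. For the strand setting of the counting, the sources used here name none.

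The sequences before the RefSeq starts of the chromosome 4 genes are shown because these neighbours differed in level in the melanoma lines and across tissues. Each is the 250 bases before that start (GRCm38.p6, plus strand, 5′ to 3′), with CpG pairs, the dinucleotides that carry DNA methylation, in capitals. For Ifnlr1 the RefSeq start lies downstream of the gene start given above (chr4:135686287). Part of its window is therefore inside the annotated gene and not upstream of it.
Ifnlr1 (chr4:135686207-135686456): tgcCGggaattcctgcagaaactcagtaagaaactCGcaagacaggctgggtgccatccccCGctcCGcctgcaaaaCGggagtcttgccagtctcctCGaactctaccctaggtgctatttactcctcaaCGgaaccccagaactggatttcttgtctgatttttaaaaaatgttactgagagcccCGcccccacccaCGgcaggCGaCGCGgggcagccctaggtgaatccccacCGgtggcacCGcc
Il22ra1 (chr4:135727909-135728158): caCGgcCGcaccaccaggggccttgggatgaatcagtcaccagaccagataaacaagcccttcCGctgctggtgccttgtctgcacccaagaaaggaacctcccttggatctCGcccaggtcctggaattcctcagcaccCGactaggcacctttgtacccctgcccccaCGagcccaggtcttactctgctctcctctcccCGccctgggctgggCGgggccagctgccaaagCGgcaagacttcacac
Myom3 (chr4:135759465-135759714): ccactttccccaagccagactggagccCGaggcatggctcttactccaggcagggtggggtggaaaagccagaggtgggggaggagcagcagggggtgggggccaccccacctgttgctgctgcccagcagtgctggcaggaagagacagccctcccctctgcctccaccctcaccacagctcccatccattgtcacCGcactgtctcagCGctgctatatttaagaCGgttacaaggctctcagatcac
The windows hold 14 CpG pairs for Ifnlr1, 9 for Il22ra1 and 4 for Myom3, against a median of 6 over 32841 mouse promoters of the same length. Their GC content is 57.6%, 62.4% and 62% in the same order, against a median of 52.4%. The motifs searched, on both strands, were 2 GAAA runs spaced by 2 bases (interferon-stimulated response element), TTCNNNGAA (gamma-activated site), CACGTG (E-box), AACCGGTT (grainyhead type), TATAAA, and the MEF2 motif of muscle genes. The Myom3 window holds a MEF2 match at -35 relative to the start, and 2.92% of promoters hold one. The windows of Ifnlr1 and Il22ra1 hold none of the 6 motifs. The share of promoters with a match is 2.98% for the response element, 6.02% for the E-box, 0.116% for AACCGGTT and 12.4% for TATAAA. Of the 7 genes with a RefSeq entry, the only other match is a gamma-activated site at -214 in the Ifnar2 window, and 7.02% of promoters hold that motif.

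Il22ra1 was close to undetected in Ctrl and WT melanoma cells and was counted in every KO melanoma library. In B16 it had 1.17, 0.962 and 1.063 CPM in the KO libraries, against 0.0213, 0.060 and 0.0296 CPM in the Ctrl libraries. No KO library overlapped a Ctrl library. The summed counts were 133 in KO and 4 in Ctrl, a depth-scaled ratio of 30.8 with an exact 95% interval of 11.7 to 115 that covers counting error only. In B16OVA the 6 KO libraries had 0.825 CPM at the lowest, 1.08 CPM at the median and 1.44 CPM at the highest, against 0, 0 and 0.0569 CPM in the 6 Ctrl libraries, 4 of which had no count. The sums were 207 counts in KO and 2 in Ctrl, a ratio of 87.5 with an interval of 23.9 to 728. The fitted log2 fold change was 4.80 in B16 (SE 0.734) and 5.93 in B16OVA (SE 0.629), and it was 4.83 and 5.84 without the libraries of low length slope. WT cells had 0 counts in B16 and 2 counts in B16OVA.

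Myom3 was also higher in the KO libraries of both melanoma lines, at levels of the order of 1 CPM. In B16 it had 1.13, 0.758 and 1.09 CPM in the KO libraries, against 0.0639, 0.180 and 0.118 CPM in the Ctrl libraries, without overlap. The sums of 125 counts in KO and 13 in Ctrl gave a ratio of 8.90 (interval 5.02 to 17.2, counting error only). The fitted log2 fold change was 3.06 (SE 0.637). In B16OVA the KO libraries had 0.385 CPM at the lowest, 0.538 CPM at the median and 0.825 CPM at the highest, against 0, 0.0421 and 0.112 CPM in the Ctrl libraries. These groups did not overlap either, and 110 counts in KO and 7 in Ctrl gave a ratio of 13.3 (interval 6.24 to 33.8) and a fitted log2 fold change of 3.51 (SE 0.540). Levels of other muscle genes in the same cells varied. The summed level of 7 skeletal muscle markers (Acta1, Ckm, Myh1, Myh4, Actn3, Mylpf and Tnnt3) ranged from 3.42 to 7.90 CPM over the KO libraries, against 1.88 to 5.91 CPM over the Ctrl libraries, and their part in the Myom3 values was not tested. Among genes of the M-band and its muscle, Ttn, which encodes the giant sarcomere protein titin, averaged 1.61 CPM in KO and 0.808 CPM in Ctrl of B16, and 3.72 CPM in KO and 1.02 CPM in Ctrl of B16OVA (log2 fold change 1.69, SE 0.672, adjusted p = 0.487 from edgeR). Obsl1, which encodes an obscurin-like cytoskeletal protein, averaged 55.2 CPM in KO and 45.5 CPM in Ctrl of B16, and 46.2 CPM in KO and 48.1 CPM in Ctrl of B16OVA. Both were chosen after their values were seen.

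Ifnlr1 differed from its neighbours in being counted in every melanoma library of every condition, and its KO levels stood closer to the Ctrl levels. In B16 it had 2.19, 3.12 and 2.30 CPM in the KO libraries, against 1.51, 2.88 and 1.51 CPM in the Ctrl libraries and 1.23, 2.45 and 1.45 CPM in the WT libraries. These groups overlap, and the depth-scaled ratio of the summed counts was 1.30 (interval 1.09 to 1.55). Such intervals cover counting error only and leave out the spread between libraries. The fitted log2 fold change was 0.43, with an SE of 0.409 that takes in this spread. In B16OVA the KO libraries had 2.08 CPM at the lowest, 3.49 CPM at the median and 4.49 CPM at the highest, against 0.349, 1.30 and 1.64 CPM in the Ctrl libraries and 0.681, 1.01 and 1.59 CPM in the WT libraries. Here KO did not overlap Ctrl, and 619 counts in KO and 206 in Ctrl gave a ratio of 2.54 (interval 2.17 to 2.99) and a fitted log2 fold change of 1.33 (SE 0.299). The lowest Ctrl value belongs to replicate 2, 1 of the libraries of low length slope. Without those libraries the fitted log2 fold change was 1.19 in B16OVA and 0.22 in B16.

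**Figure D1:**
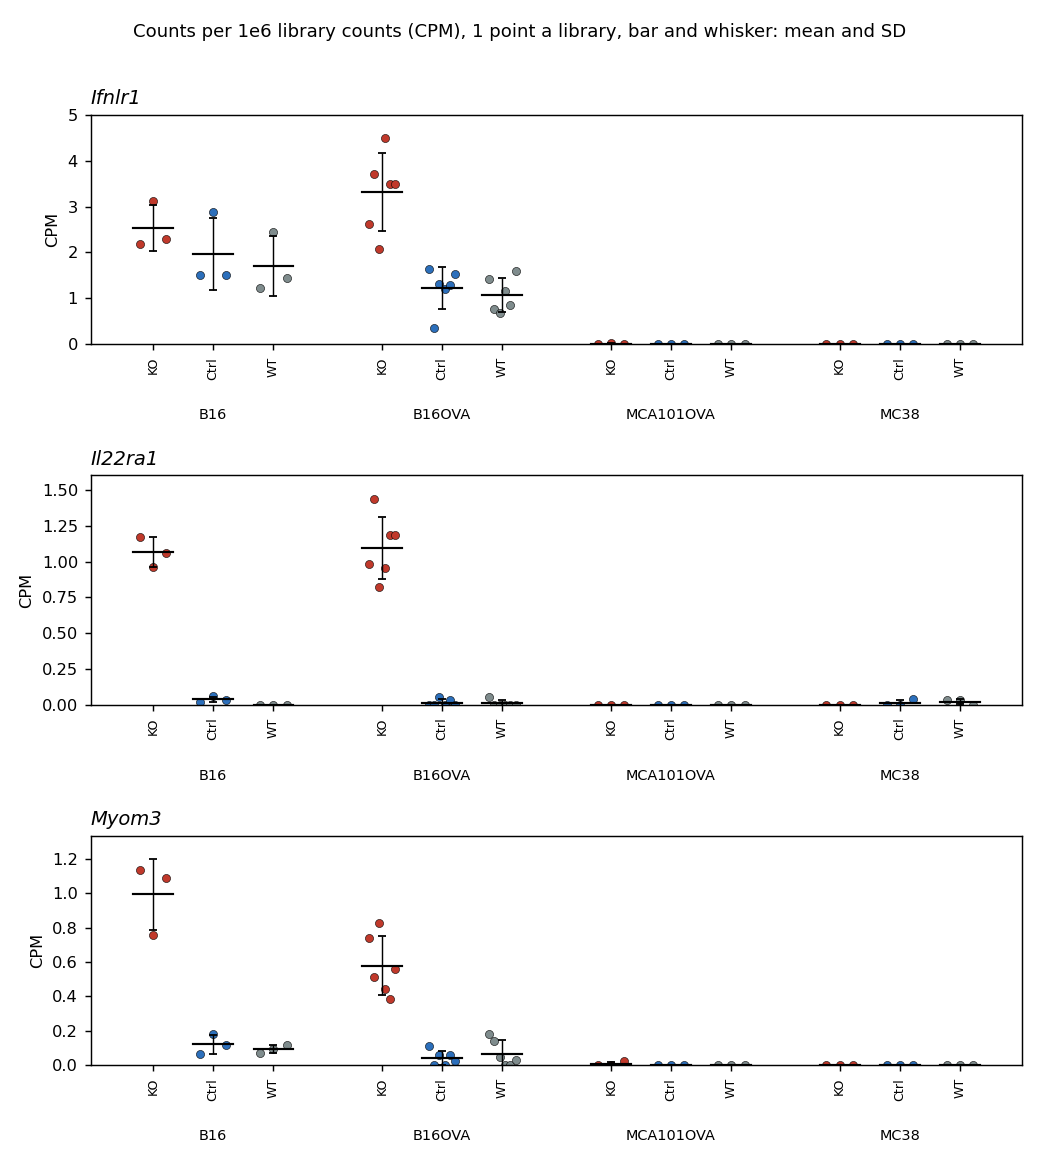
Level of Ifnlr1, Il22ra1 and Myom3 (CPM, linear axis from 0) in the KO, Ctrl and WT libraries of the 4 tumour lines, with 1 point per library and the group mean and SD as bar and whisker. Il22ra1 reaches 0.825 to 1.44 CPM in the melanoma KO libraries and stays at or under 0.060 CPM in the melanoma Ctrl libraries.

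Each label holds a code before its library number (B253, B262 or D176 in the 45 tumour libraries), here called the run. What this code stands for is not stated in the labels. Run is part of the design, since the libraries of every line carry 1 to 3 of these codes. The ratio of mean Ifnlr1 levels in KO to those in Ctrl of the same run was 1.44 and 1.24 in the 2 runs of B16, and 1.60, 3.49 and 2.85 in the 3 runs of B16OVA. Run B253 holds 1 library per group in both lines. In B16OVA, Myom3 averaged 0.463 CPM in KO and 0.0290 CPM in Ctrl in run D176, and 0.670 CPM in KO and 0.0285 CPM in Ctrl in run B262. Il22ra1 averaged 1.11 CPM in B16OVA KO and 0.00994 CPM in B16OVA Ctrl in run D176. KO was above Ctrl in each run of both melanoma lines for all 3 genes. The genes were picked by this difference in these same libraries, so the runs are no separate support for it. The Ctrl means of Il22ra1 and Myom3 rest on few counts.

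In MCA101OVA and MC38 cells the 3 genes were close to undetected in every condition. MCA101OVA had 1 count of Ifnlr1 and 1 of Myom3 in KO and none in Ctrl or WT, and no count of Il22ra1. MC38 had no count of Ifnlr1 or Myom3, and 0, 1 and 2 counts of Il22ra1 in KO, Ctrl and WT. At this depth 0 counts in the MC38 KO libraries allow up to 0.0485 CPM, and 0 counts of Il22ra1 in the MCA101OVA KO libraries up to 0.0275 CPM, taking 3 counts over the group as the limit.

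Across all 16809 genes tested in these 45 libraries, 0.690% were called in B16 KO against Ctrl, and the share was 1.05% for B16OVA, 0.345% for MCA101OVA and 0.464% for MC38 at an adjusted p under 0.05 (edgeR). Among the 8 genes, 2 were called in B16 (Il22ra1 and Myom3), 3 in B16OVA (these and Ifnlr1), and none in MCA101OVA or MC38. These counts follow from how the genes were picked, and nothing is read from them. Il22ra1 and Myom3 also passed the filter on low counts only through the melanoma KO groups, where they are high. The B16 call of Myom3 was lost when B16 Ctrl replicate 1 or 3 was left out, without the run term, and with the 2 groups alone in the fit. The B16OVA call of Ifnlr1 was lost without B16OVA Ctrl replicate 4 or 5 or KO replicate 2 or 4, and without the low-count filter.

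The other 5 receptor chains, the shared chain Il10rb and the type I and gamma receptor chains, were expressed in every line. Their 20 fitted log2 fold changes over 4 lines lay between -0.82 and 0.30, 11 of them positive and 9 negative. In B16 all 5 were positive, between 0.01 and 0.30. In B16OVA they lay between -0.19 and 0.17. Without the libraries of low length slope the direction turned for Ifnar2 in B16 (-0.16), and in B16OVA for Il10rb (0.11), Ifngr1 (-0.05) and Ifngr2 (0.13).

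Il10rb, the partner chain of both Ifnlr1 and Il22ra1, had 79.9, 85.8 and 66 CPM in B16 KO, against 66.1, 69.6 and 59.2 CPM in B16 Ctrl. In B16OVA it had 37.9 CPM at the lowest, 62.1 CPM at the median and 86.1 CPM at the highest in KO, against 36.8, 56.4 and 110.8 CPM in Ctrl. The highest Ctrl value is again that of replicate 2. In MCA101OVA it had 5.41, 7.85 and 9.27 CPM in KO, against 8.15, 16.3 and 10.7 CPM in Ctrl, a fitted log2 fold change of -0.82 (SE 0.292) that became -0.34 without the library of low length slope. MC38 cells had 7.55, 5.81 and 4.83 CPM in KO, against 8.24, 6.57 and 5.86 CPM in Ctrl.

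Ifnar1, the low-affinity chain of the type I receptor, had 77.2, 80.4 and 71.7 CPM in B16 KO, against 57.5, 85.7 and 75.7 CPM in B16 Ctrl. In B16OVA it ranged from 63.2 to 87.0 CPM in KO and from 68.2 to 95.3 CPM in Ctrl. Its groups overlapped in all 4 lines. Ifnar2, the high-affinity chain of the same receptor, ranged from 16.9 to 28.9 CPM in B16OVA KO and from 13.1 to 24.4 CPM in B16OVA Ctrl, and its groups overlapped in all 4 lines as well.

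Ifngr1, the ligand-binding chain of the gamma receptor, ranged from 20.01 to 24.2 CPM in B16OVA KO and from 8.77 to 23.2 CPM in B16OVA Ctrl. The low end of the Ctrl range is replicate 2, and the other 5 Ctrl libraries had at least 18.99 CPM. Ifngr2, the signalling chain of that receptor, ranged from 48.02 to 94.9 CPM in B16OVA KO and from 40.2 to 124 CPM in B16OVA Ctrl. Of the 5 chains in 4 lines, only Ifngr2 in MCA101OVA separated KO from Ctrl. The share of all genes that separate in this way is not given here, so nothing is read from it. In MCA101OVA Ifngr2 had 34.1, 43.4 and 41.6 CPM in KO, against 51.3, 53.7 and 44 CPM in Ctrl. The WT libraries had 39.8, 36.7 and 43.2 CPM. The KO libraries lay below all Ctrl libraries and overlapped the WT libraries, and the fitted log2 fold change of -0.49 (SE 0.311) became -0.25 without the library of low length slope.

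**Figure D2:**
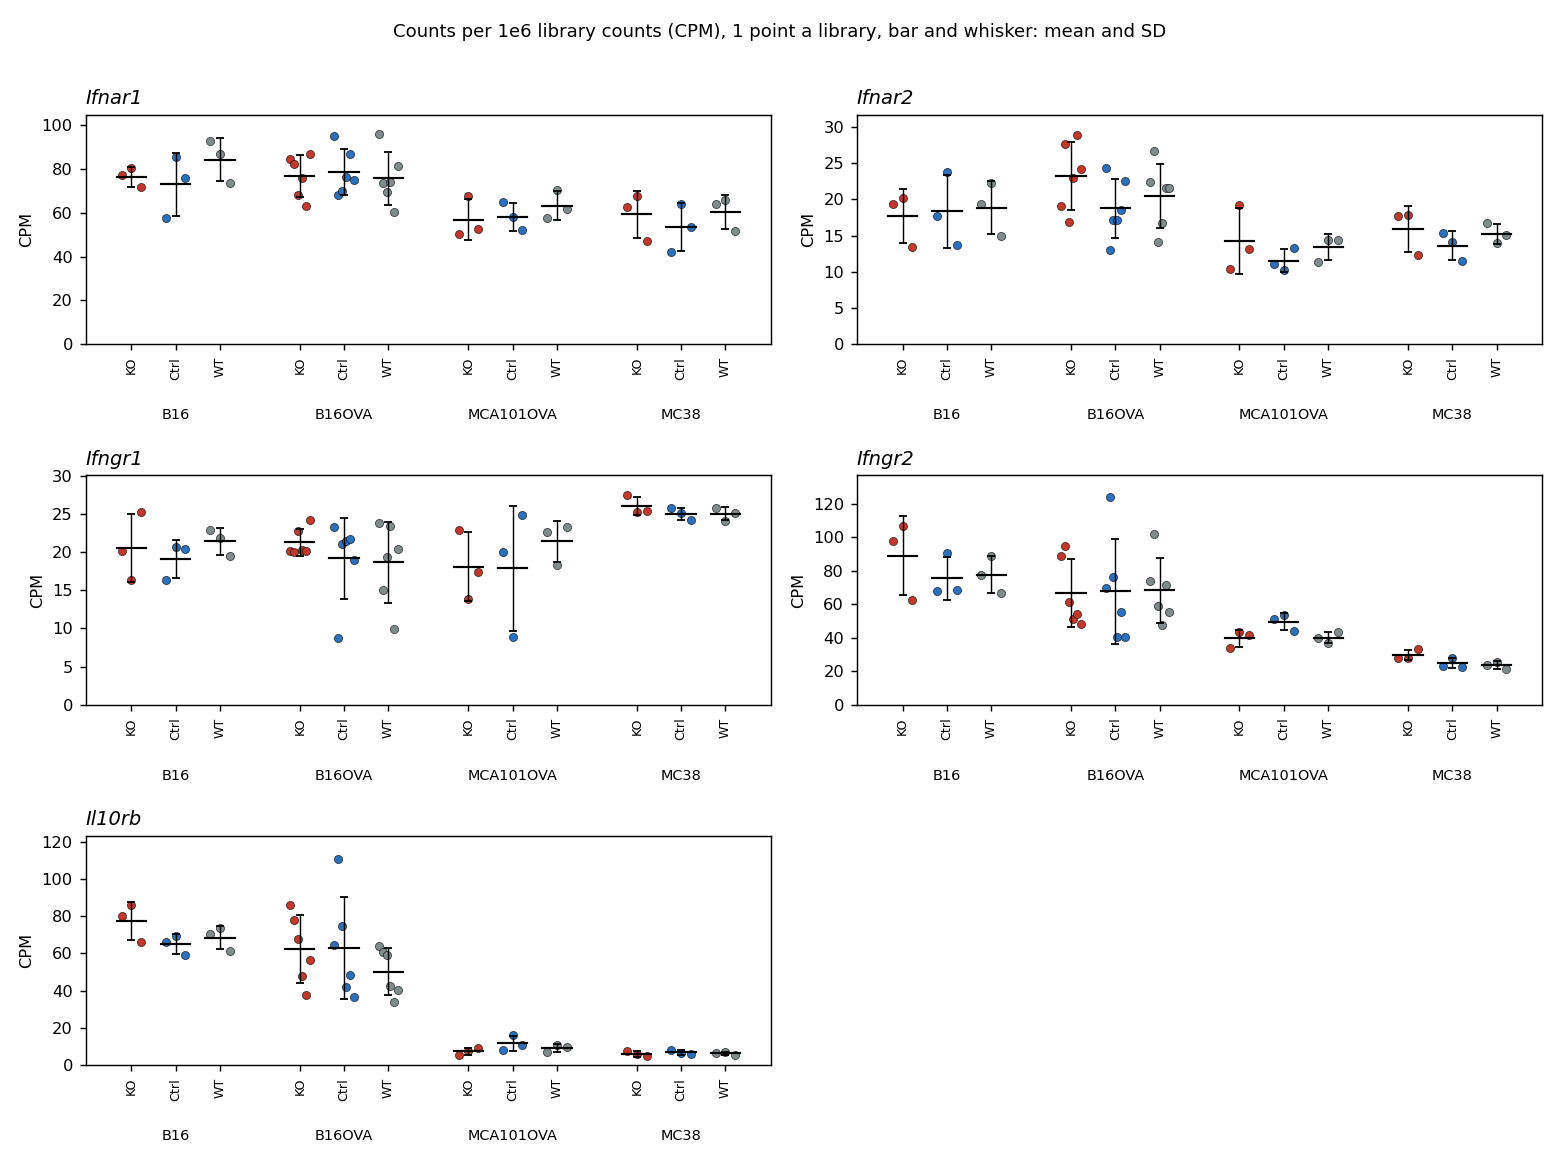
Level of Il10rb, Ifnar1, Ifnar2, Ifngr1 and Ifngr2 (CPM, linear axis from 0) in the KO, Ctrl and WT libraries of the 4 tumour lines, with 1 point per library and the group mean and SD as bar and whisker. KO and Ctrl libraries overlap in each panel and line except for Ifngr2 in MCA101OVA.

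Set against each other per length, the ligand-specific chains stood far below their shared partner. In B16OVA KO, Il10rb averaged 16.4 CPM per kilobase of exon, 20.7 times the 0.792 CPM per kilobase of Ifnlr1 and 38.4 times the 0.427 CPM per kilobase of Il22ra1. In B16OVA Ctrl the level of Il10rb per kilobase was 56.6 times that of Ifnlr1. In B16 the same ratio was 33.4 in KO and 36.3 in Ctrl. In melanocytes it was 17.1. The level of Ifnar1 per kilobase was 1.28 to 2.83 times that of Ifnar2 in the cultured groups, lowest in melanocytes. The level of Ifngr2 per kilobase was above that of Ifngr1 in B16, B16OVA, MCA101OVA and melanocytes and below it in MC38, where the ratio was 0.864 in KO, 0.746 in Ctrl and 0.7105 in WT.

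The genes around these 3 were followed in KO against Ctrl as well. Of the 20 protein-coding genes nearest to Ifnlr1 in order, 10 on each side, 18 are not Il22ra1 or Myom3, and 15 of them could be tested. None was called in any of the 4 lines by edgeR. Their median log2 fold change was 0.157 in B16 and 0.130 in B16OVA, beside 0.000232 and -0.0128 over all tested genes. The nearest tested neighbour upstream, Stpg1, had the highest fold change of the 15 in B16OVA, with 3.58 CPM in KO and 1.17 CPM in Ctrl (log2 fold change 1.43, SE 0.419, adjusted p = 0.124 from edgeR). In B16 it had 2.52 CPM in KO and 2.98 CPM in Ctrl. It was called in B16OVA by DESeq2 (adjusted p = 0.0369), without the low-count filter (edgeR, 0.0301) and with the library set as a replicate block (edgeR, 0.0208). Stpg1 encodes a sperm-tail PG-rich repeat protein, and like the next 2 genes it was chosen after its values were seen. Downstream, Srsf10, a splicing regulator, and Pnrc2, a cofactor of mRNA decay, had log2 fold changes of -0.23 and -0.58 in B16. Between Ifnlr1 and Myom3 lie 2 processed pseudogenes on the minus strand. Gm12989 had 95 counts in KO and 99 in Ctrl of B16, and 99 counts in KO and 102 in Ctrl of B16OVA. Gm12988 had 18 counts in KO and 22 in Ctrl of B16, and 20 counts in KO and 14 in Ctrl of B16OVA.

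**Figure D3:**
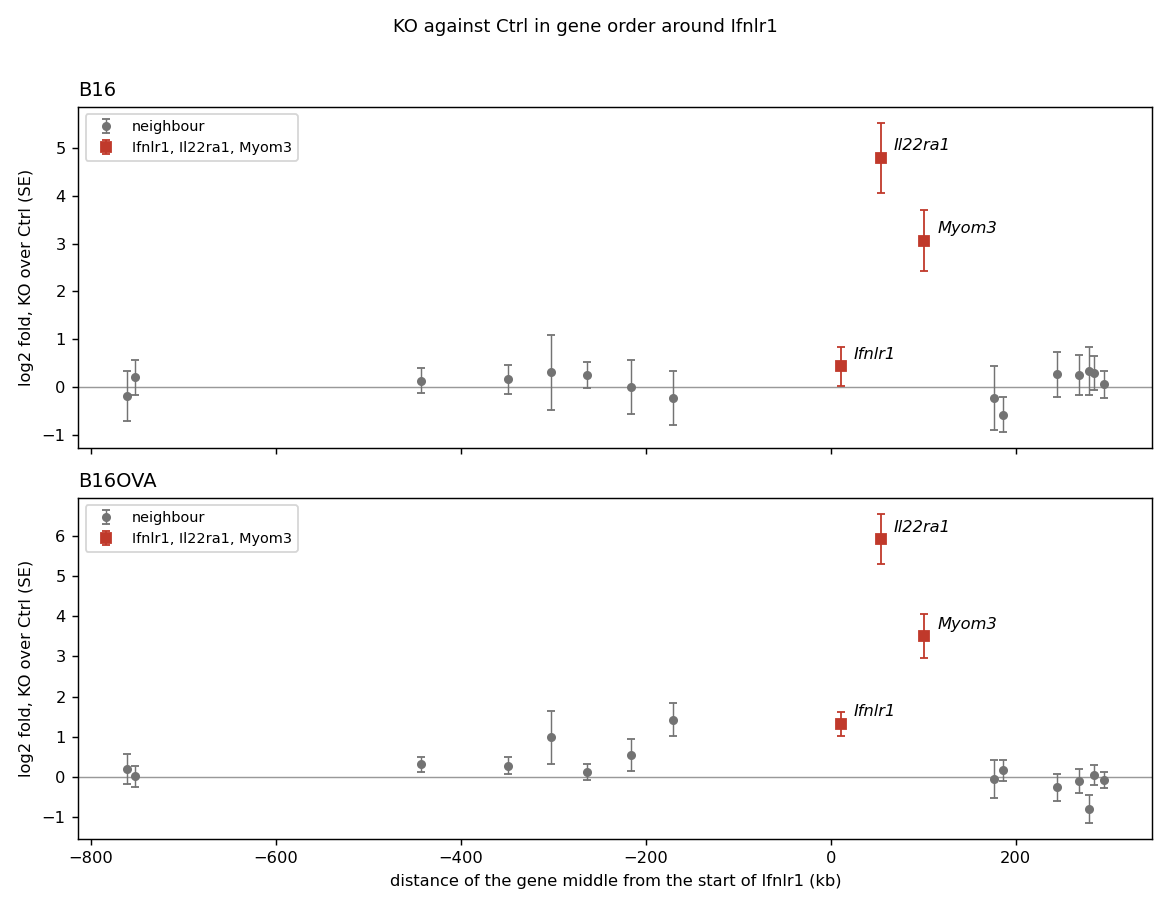
Fitted log2 fold change (KO over Ctrl, with bars of 1 SE) of the tested genes around Ifnlr1 in B16 and B16OVA, by the distance of the gene's middle from the start of Ifnlr1 in kilobases. Il22ra1 and Myom3 (red) stand at 4.80 and 3.06 in B16 and at 5.93 and 3.51 in B16OVA, Ifnlr1 (red) at 0.43 and 1.33, and none of the neighbours (grey) was called.

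The region on chromosome 16 gave a comparison of the same kind. Of the 17 genes around Ifnar1 that are not interferon receptor chains, 13 could be tested and none was called in any line by edgeR. Beside the shares of all genes given above, nothing is read from this either. The log2 fold changes of these 13 genes ranged from -0.715 for Dnajc28 to 0.422 for Tmem50b in B16, and from -0.608 for Atp5o to 0.53 for Dnajc28 in B16OVA.

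Other genes of the pathway were followed through 6 lists of ligands, further receptor chains, kinases and transcription factors, inhibitors, interferon-stimulated genes and M-band genes. None of their tested genes was called in KO against Ctrl in any line by edgeR, beside the 0.690%, 1.05%, 0.345% and 0.464% of all genes given above. At an unadjusted p under 0.05, no gene of the lists passed for B16, 2 did for B16OVA, and 1 each for MCA101OVA and MC38. The ligands were nearly silent. Of 21 interferon and IL-10 family ligands, 10 had no count in the 45 libraries, among them Ifnl2 and Ifnl3, the ligands of Ifnlr1, and Ifng. Il22, the ligand of Il22ra1, had 5 counts in all. The highest value of any ligand in 1 library was 0.833 CPM, for Il24.

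Of the 5 further class II chains, Il20rb and F3 could be tested. Il20rb, which pairs with Il22ra1 to bind IL-20 and IL-24, averaged 2.63 CPM in KO and 2.52 CPM in Ctrl of B16, and 2.31 CPM in KO and 2.82 CPM in Ctrl of B16OVA. All 10 kinases and transcription factors were tested. Jak1, the kinase that most of these receptors share, averaged 185 CPM in KO and 153 CPM in Ctrl of B16OVA. The median log2 fold change of this list was 0.0527 in B16 and 0.149 in B16OVA. All 10 inhibitors were tested as well, with medians of -0.0169 and 0.139.

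The 26 interferon-stimulated genes were all tested, with a median log2 fold change of -0.502 for MC38, -0.158 for MCA101OVA, -0.472 for B16 and 0.321 for B16OVA. The sign thus differed between B16 and B16OVA, and the difference between the lines was not tested. The genes named next were chosen after their values were seen. Isg15, a ubiquitin-like modifier, averaged 6.59 CPM in KO and 8.37 CPM in Ctrl of B16, 10.2 CPM in KO and 6.08 CPM in Ctrl of B16OVA, and 228 CPM in KO and 255 CPM in Ctrl of MCA101OVA. Oas1a, an activator of RNase L, averaged 9.46 CPM in KO and 2.68 CPM in Ctrl of B16 (log2 fold change 1.91, SE 1.15). In B16OVA it averaged 7.37 CPM in KO and 2.47 CPM in Ctrl (log2 fold change 1.31, SE 0.808). Without the filter on low counts, Oas1a, Oas1g and Oas2 were called higher in B16 KO (edgeR, adjusted p = 0.00576, 0.0103 and 0.0456), and Oas1a, Oas1g, Irf7 and Ttn higher and Oas3 lower in B16OVA KO. Of the 15 genes of the M-band and its muscle, 9 were tested and none was called, with median log2 fold changes of 0.207 in B16 and 0.395 in B16OVA. Myom3 is not on that list.

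**Figure D4:**
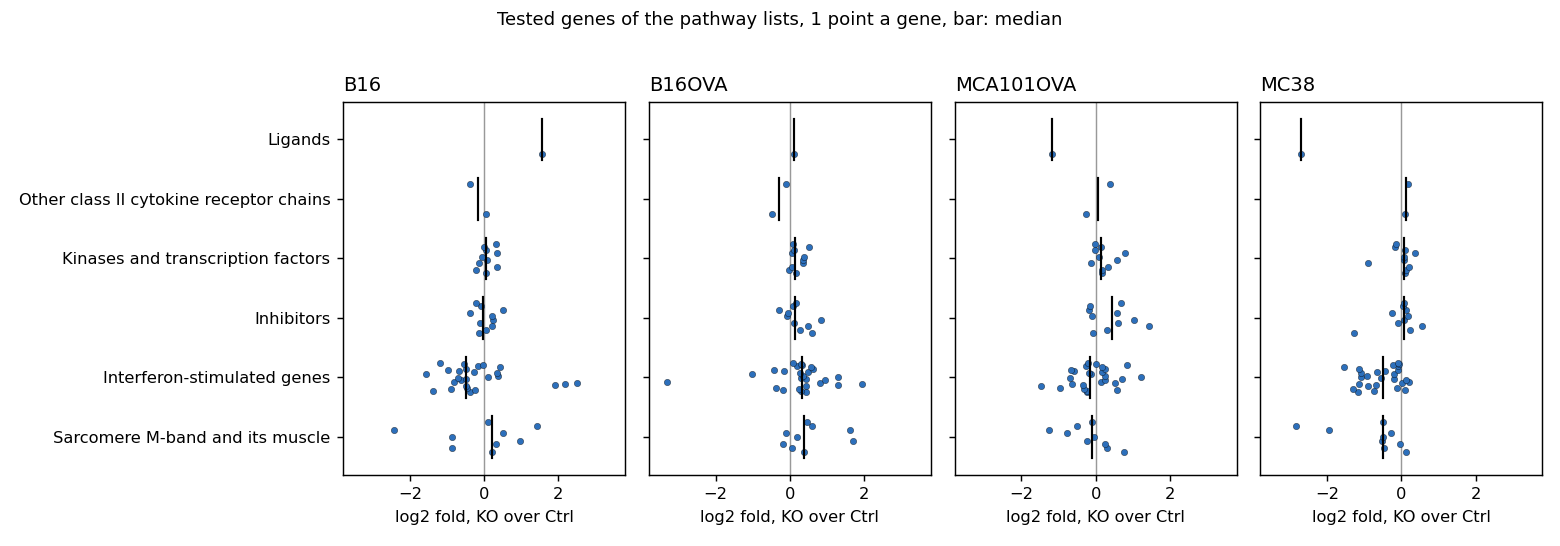
Fitted log2 fold change (KO over Ctrl) of each tested gene of the 6 pathway lists, by line, with 1 point per gene and the list median as a bar. The 26 interferon-stimulated genes lie between -1.57 and 2.50 in B16 and between -3.31 and 1.94 in B16OVA, and none of the genes shown was called.

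Ctrl and WT cells, neither of them labelled Setdb1KO, were compared next. None of the 8 genes was called between Ctrl and WT in any of the 4 lines, with a smallest adjusted p of 1.0 (edgeR). Of the 16809 genes, 0% were called in any line. In MCA101OVA the 3 chromosome 4 genes had 0 counts in both groups, so no call was possible. The same holds for Ifnlr1 and Myom3 in MC38. At an unadjusted p under 0.05 between 104 (B16) and 630 (B16OVA) genes passed per line. DESeq2 called 1 gene, in MCA101OVA, and none in the other lines. For the 5 chains other than those of the chromosome 4 genes, the 20 fitted log2 fold changes lay between -0.19 and 0.57. Ifnlr1 had 218 counts in Ctrl and 186 in WT of B16, a ratio of 1.13 (interval 0.928 to 1.39), and 206 counts in Ctrl and 205 in WT of B16OVA, a ratio of 1.18 (0.967 to 1.44). Myom3 had 13 counts in Ctrl and 11 in WT of B16, and 7 in Ctrl and 13 in WT of B16OVA. Il22ra1 had 4 counts in Ctrl, at least 1 in each library, and 0 in WT of B16, and 2 in each group of B16OVA. The comparisons with Ctrl share the Ctrl libraries.

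WT melanoma cells were then set against their healthy counterpart, cultured melanocytes of the same run. Ifngr1 and Ifnar2 were lower in B16OVA. Ifngr1 had 23.4, 9.95 and 20.4 CPM in the B16OVA WT libraries, against 43.1, 40.2, 42.8, 38.8 and 79.9 CPM in melanocytes, a log2 fold change of -1.40 (SE 0.354, adjusted p = 0.0141 from edgeR). Ifnar2 had 16.7, 21.5 and 21.5 CPM in B16OVA WT, against 31.6, 40.4, 42.1, 46.7 and 52.8 CPM in melanocytes (log2 fold change -0.95, SE 0.291, adjusted p = 0.0307 from edgeR). In this comparison 33.8% of 15172 genes were called. The groups did not overlap for either gene. The share of all genes that separate in this way is not given for any WT contrast, so nothing is read from separation alone. Without B16OVA WT replicate 5, a library of low length slope, the log2 fold changes were -1.21 for Ifngr1 and -1.20 for Ifnar2 (adjusted p = 0.032 and 0.0103 from edgeR). The Ifnar2 call was lost in 7 of 12 alternatives, among them leaving out B16OVA WT replicate 4 (adjusted p = 0.103 from edgeR) or 6 (0.0887) or any of melanocyte replicates 2 to 5 (0.0509 to 0.0598).

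Ifnlr1 had 1.16, 0.855 and 1.59 CPM in those B16OVA WT libraries, against 0.453, 4.90, 4.31, 6.67 and 5.50 CPM in melanocytes. All melanocyte libraries but replicate 1 lay above the melanoma libraries, and the log2 fold change of -1.73 (SE 0.711) did not pass (adjusted p = 0.0889 from edgeR). Without melanocyte replicate 1 it was -2.02 and passed (adjusted p = 0.00592 from edgeR), and DESeq2 called it with all libraries (0.0213). That library stands apart. Its melanocyte markers summed to 12320 CPM, against 45020 to 65150 CPM in the other 4 cultures, and its fibroblast markers (Col1a1, Col1a2, Pdgfra and Dcn) to 13090 CPM, against 123 to 1806 CPM. In bulk RNA fewer cells of a type and less RNA per cell cannot be told apart. Replicate 5, the highest for Ifngr1, had 4384 CPM of haematopoietic markers, against 187 to 1185 CPM in the others, and the part of these cells in the values was not tested. Il10rb (39.1 ± 4.38 CPM in B16OVA WT, n = 3, and 68.1 ± 33.4 CPM in melanocytes, n = 5, SD), Ifnar1 and Ifngr2 did not pass. Of these, Ifnar1 had libraries without overlap, with 60.2 to 81.2 CPM in B16OVA WT and 84.6 to 138.4 CPM in melanocytes. Il22ra1 had 0 counts in these B16OVA WT libraries and 1 in melanocytes. Myom3 had 1 count in B16OVA WT and 5 in melanocytes, and neither gene was tested.

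Among WT tumour lines, Ifnlr1 and Il10rb were higher in the melanoma line. Against MC38 WT of the same run, B16OVA WT had 107 counts of Ifnlr1 and MC38 none, at least 40.8-fold higher with 3 counts over the group as the limit (adjusted p = 0.000966 from edgeR). Il10rb had 42.6, 34.2 and 40.6 CPM in B16OVA WT, against 6.47, 6.85 and 5.69 CPM in MC38 WT (log2 fold change 2.72, SE 0.285, adjusted p = 0.000318 from edgeR). Ifngr2 had 47.6, 71.4 and 55.4 CPM in B16OVA WT, against 23.7, 25.7 and 21.1 CPM in MC38 WT (log2 fold change 1.44, SE 0.332, adjusted p = 0.0119 from edgeR), a call lost when any of MC38 WT replicates 1 to 3 was left out (0.0535 to 0.0654). In this comparison 33.0% of 14204 genes were called. The libraries of these 3 genes did not overlap, and the share of all genes that separate in this way is not given here. Without B16OVA WT replicate 5, a library of low length slope, 8008 genes of all tested were called in place of 4692, and the same 3 of the 8 genes were (log2 fold change 2.65 for Il10rb and 1.07 for Ifngr2). Ifnar1, Ifnar2 and Ifngr1 did not pass. The Ifngr1 libraries did not overlap either, with 9.95 to 23.4 CPM in B16OVA WT and 24.1 to 25.8 CPM in MC38 WT.

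Against MCA101OVA WT of the same runs, B16OVA WT had 98 counts of Ifnlr1 and MCA101OVA none, at least 34.3-fold higher (adjusted p = 0.00149 from edgeR). Il10rb had 64.2, 60.7 and 59.2 CPM in B16OVA WT, against 6.97, 10.9 and 9.89 CPM in MCA101OVA WT (log2 fold change 2.73, SE 0.384, adjusted p = 0.000784 from edgeR). These were the only calls among the 8 genes, where 26.3% of 14266 genes were called. Without B16OVA WT replicate 2, a library of low length slope, both calls stood (adjusted p = 0.00779 for Ifnlr1 and 0.00131 for Il10rb from edgeR). Ifngr2 averaged 78.3 ± 21.9 CPM in B16OVA WT and 39.9 ± 3.25 CPM in MCA101OVA WT (SD, n = 3 each) without overlap and missed the threshold (adjusted p = 0.101 from edgeR). Myom3 had 12 counts in B16OVA WT and none in MCA101OVA WT, at least 4.2-fold higher, and was too low to be tested.

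Across the 12 healthy tissues the chromosome 4 genes followed orders of their own, and 84 of the 96 pairs of gene and tissue were called against the mean of the other 11 tissues (edgeR). Of all 26242 genes tested, the share called was 71.2% in brain, 69.0% in thymus, 65% in spleen, 64.2% in liver, 61.5% in lymph node and 59.7% in heart. It was 59.4% in stomach, 57.8% in skin, 57.1% in kidney, 57.0% in lung, 55.6% in ovary and 54.4% in colon. Tissue contrasts depend on how libraries of different composition are scaled, and the scaling used (TMM) moved the median of 9548 widely expressed genes by 1.15 on the log2 scale in liver, 0.695 in heart and -0.522 in ovary relative to plain CPM. The direction of 9 called pairs turned with plain CPM, as listed under the processing alternatives.

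Ifnlr1 was highest in barrier tissues. It averaged 30.5 ± 1.31 CPM in skin, 24.8 ± 1.19 in lung, 18.6 ± 4.16 in colon and 15.4 ± 4.10 in stomach (SD, n = 4 each). Skin lay above lung and lung above colon without overlap, colon and stomach overlapped, and stomach lay above all libraries of the next tissue, lymph node (labelled LN, 6.33 ± 1.23 CPM). These tissues were called higher, with log2 fold changes of 2.42, 2.18, 1.90 and 2.09 (adjusted p at most 5.28e-13 from edgeR). Lymph node, thymus, heart, kidney, ovary and spleen followed between 6.33 and 3.63 CPM, each overlapping the next. Brain (0.629 CPM) and liver (0.279 CPM) were lowest, and their libraries overlapped.

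Il22ra1 was highest in colon (29.5 ± 10.1 CPM) and skin (24.8 ± 7.33 CPM), whose libraries overlapped. Liver followed at 5.84 ± 1.97 CPM, then kidney, ovary, stomach and lung between 3.27 and 1.67 CPM, each overlapping the next. All libraries of these 7 tissues except 1 ovary library lay above the highest of the remaining 5, where means ran from 0.345 CPM in heart to 0.0244 CPM in brain. The order parted from that of Ifnlr1 in liver and lung. Liver was called higher for Il22ra1 (log2 fold change 3.91, SE 0.316, adjusted p = 4.61e-14 from edgeR) and lower for Ifnlr1 (-3.46, SE 0.274, 2.61e-14). Lung was called higher for Ifnlr1 and not for Il22ra1 (0.63, SE 0.383, adjusted p = 0.167). The 6 epithelial markers summed to 8620 CPM in colon, 8523 in stomach, 916 in thymus, 862 in lung and 650 in skin, and their part in these levels was not tested.

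Myom3 was dominated by skin, with 74.03 ± 11.7 CPM and a log2 fold change of 5.28 (SE 0.273, adjusted p = 1.09e-19 from edgeR). Lung, colon and heart followed at 5.07 ± 0.808, 4.62 ± 1.22 and 4.52 ± 0.550 CPM and overlapped. The skeletal muscle markers summed to 4172 CPM in skin and 2406 CPM in heart, and to at most 97.8 CPM on average elsewhere, and their part in the Myom3 levels was not tested. Liver was called higher (log2 fold change 1.10, adjusted p = 0.00845 from edgeR), and its libraries ranged from 0.549 to 6.27 CPM. Without replicate 2 of every tissue the liver value turned to -0.0748, and that liver library held 6.27 CPM of Myom3 and 389 CPM of skeletal muscle markers.

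The other chains were spread more evenly, and on the plain CPM scale Ifnar1, Ifnar2 and Ifngr1 were highest in lymph node or thymus. Il10rb was highest in spleen (79.7 ± 7.33 CPM), heart (77.8 ± 6.83) and lymph node (69.4 ± 7.92), which overlapped in that order, and lowest in liver (6.44) and brain (4.87). In the TMM-scaled fit heart stood above spleen for Il10rb, with log2 fold changes of 2.07 and 1.05. Ifnar1 ran from 150.4 ± 12.6 CPM in lymph node to 24.3 ± 3.94 CPM in stomach. Lymph node lay above thymus (113.8) and spleen (111.1) without overlap. Ifnar2 was highest in lymph node (77.9 ± 4.44 CPM) and spleen (74.7 ± 4.60 CPM), which overlapped, and lowest in stomach (10.0 ± 1.13 CPM). The TMM-scaled fit gave another order for Ifnar2. Liver had its highest log2 fold change (1.72, SE 0.058, adjusted p = 2.71e-26 from edgeR), above spleen (1.13) and lymph node (1.13). Brain had its lowest (-1.58).

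Ifngr1 ran from 350.3 ± 32.3 CPM in thymus, above every other tissue without overlap, to 15.7 ± 1.42 CPM in brain. Ifngr2 was highest in heart (177.1 ± 30.8 CPM) and colon (152.8 ± 18.7 CPM), which overlapped, and lowest in liver (18.8 ± 3.23 CPM). In thymus Ifngr1 was called higher (log2 fold change 1.59, SE 0.0867, adjusted p = 3.7e-19 from edgeR) and Ifngr2 was not called (-0.20, adjusted p = 0.103). In heart Ifngr2 was called higher (2.37) and Ifngr1 lower (-0.38, adjusted p = 0.00201 from edgeR). In brain all 8 genes were called lower, where 35.0% of all genes were.

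**Figure D5:**
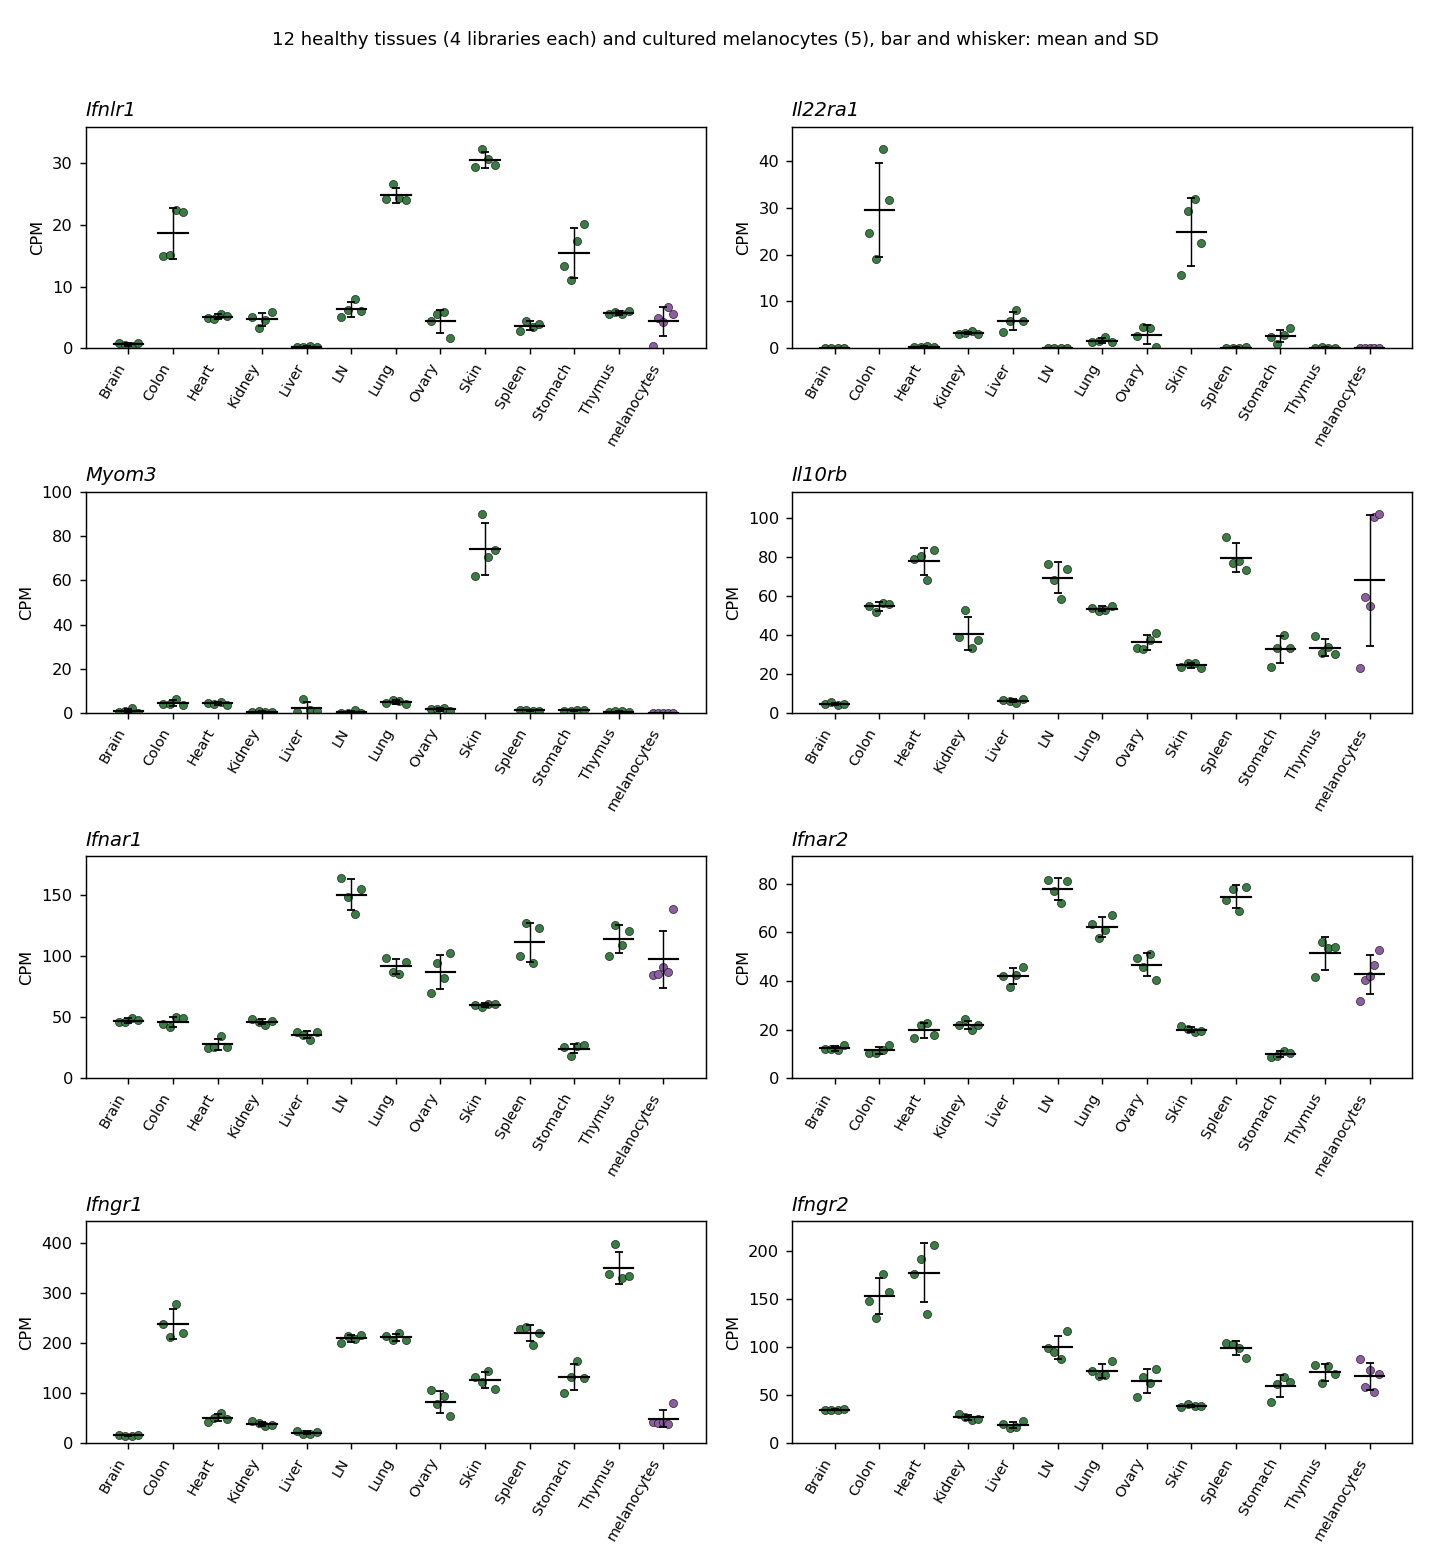
Level of each of the 8 genes (CPM, linear axis from 0) in the 12 tissues, in alphabetical order with 4 libraries each, and in the 5 melanocyte cultures, with 1 point per library and the group mean and SD as bar and whisker. Skin and lung lead for Ifnlr1, colon and skin for Il22ra1, skin alone for Myom3, and lymph node, spleen or thymus for Ifnar1, Ifnar2 and Ifngr1.

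Per length, Il10rb stood above Ifnlr1 in every tissue but skin. The level of Il10rb per kilobase was 0.888 times that of Ifnlr1 in skin, 2.32 times in stomach, 2.38 times in lung and 25.4 times in liver. It was below that of Il22ra1 in skin (0.670 times) and liver (0.745 times), close to it in colon (1.25 times), and 1530 times that of Il22ra1 in lymph node.

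Over the 12 tissue means, log levels of Ifnlr1 and Il22ra1 had a Pearson r of 0.382, Ifnlr1 and Myom3 of 0.474, and Il22ra1 and Myom3 of 0.649. The pair Ifnar1 and Ifnar2 had an r of 0.809 and Ifngr1 and Ifngr2 of 0.619. Ifnar1, Ifnar2 and Ifngr1 had an r of 0.774, 0.805 and 0.8 with the summed haematopoietic markers, Il22ra1 of 0.671 with the epithelial markers, and Myom3 of 0.771 with the skeletal muscle markers. These values describe 12 tissues whose libraries share runs and scaling, and no test was made.

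Genes with a similar pattern were ranked by Pearson r of log2(mean CPM + 0.1) over 25 groups (12 line groups, melanocytes and 12 tissues), among 17521 named genes that reached 1 CPM in a group. Closest to Ifnlr1 were Tcaf2 (0.946), Cracr2b (0.941), Postn (0.938), Creb3l1 (0.937) and Plcd1 (0.936). Closest to Il22ra1 were AI463170 (0.864), Ugt1a6a (0.863), Bco1 (0.861), Ugt1a1 (0.852) and Ggt6 (0.851), and Myom3 ranked 12 with 0.828. Closest to Myom3 were Cytl1 (0.897), Casq1 (0.880), Angptl7 (0.877), Ppl (0.875) and Ndufa4l2 (0.874), with Il22ra1 at rank 40. Ifnlr1 reached 0.624 with Il22ra1, at rank 807 of that list, and 0.760 with Myom3. With a pseudocount of 1 CPM, 3 of the 5 genes stayed for Ifnlr1, 2 for Il22ra1 and 3 for Myom3. Over the 12 line groups and melanocytes alone none stayed for any of the 3. There Stpg1, the neighbour described above, ranked 3 for Ifnlr1 (0.995), where the 5 highest values ran from 0.994 to 0.997. Both sets of groups include the KO groups by which the genes were picked, so the rankings are a description only.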

How the data were processed

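RNA was prepared with a TruSeq Stranded mRNA kit, per the labels' protocols. The authors deposited raw counts per gene, and the submitters' processing notes name Trim Galore, FastQC, STAR, HTSeq and mm10 without versions or the strand setting. Of 53379 gene IDs, 53274 matched a GENCODE vM21 symbol. From these deposited counts, CPM and edgeR 4.0.16 quasi-likelihood fits were computed (R 4.3.3, limma 3.58.1, TMM, filterByExpr), with group and run as terms. The 45 tumour libraries of replicated groups shared 1 fit, the WT contrasts used libraries of shared runs, and the 48 tissue libraries had their own fit. A gene was called at an adjusted p under 0.05. The 7 WT libraries of run B176 stayed out of every fit. No 2 libraries of a group held identical counts (154 pairs compared). DESeq2 1.42.0 was an alternative. Fold intervals and limits at 0 counts cover counting error only. The 8 genes, the gene lists and the rules were chosen with earlier results of these data known. Genes named are the 8, called neighbours, called list genes, the 5 genes most alike and Setdb1, and any other is said to have been chosen after its values were seen or stands beside one of the 8. Replicate numbers are only names.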

Additional observations from a re-analysis of the deposited data

Results flagged for a closer look

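Of 120 combinations of gene and group with 4 to 10 libraries, 9 had a library far from the others of its group, by a test that chance alone passes in about 1 in 20 groups. In B16OVA Ctrl, replicate 2 was low for Ifnlr1 (0.3486 CPM, against 1.213 to 1.636 CPM in the other Ctrl libraries) and for Ifngr1 (8.772 CPM, against 18.99 to 23.24 CPM), and it is also a library of low length slope. In melanocytes, replicate 5 was high for Ifnar1 (138.4 CPM, against 84.63 to 90.8 CPM) and for Ifngr1 (79.86 CPM, against 38.78 to 43.14 CPM), and it had the most haematopoietic marker RNA. The part of these features in the values was not tested. In tissues, Ifnlr1 was high in lung replicate 2 (26.54 CPM, against 24.08 to 24.35 CPM). Myom3 was high in lymph node replicate 3 (1.474 CPM, against 0.08221 to 0.3048 CPM) and low in ovary replicate 4 (0.8629 CPM, against 2.078 to 2.265 CPM). Ifnar1 was high in heart replicate 3 (34.85 CPM, against 24.69 to 25.96 CPM), and Ifngr1 in thymus replicate 2 (398.5 CPM, against 330.8 to 337.6 CPM).

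The libraries of run B176, used in no comparison, stood more than 1.5 times above the highest WT library of the same line in 2 of 32 combinations. Ifnlr1 had 4.048 CPM in the B176 library of B16, against 1.225 to 2.452 CPM in the B16 WT libraries. Il10rb had 12.46 CPM in that of MC38, against 5.694 to 6.849 CPM in the MC38 WT libraries. Run and group cannot be told apart there.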

How the results depend on the processing

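Of the 8 genes, 2 were called in B16 KO against Ctrl, and 1 without the run term, 1 with the 2 groups alone in the fit, and 1 to 2 with 1 library left out. Calls of the 8 genes in KO against Ctrl follow from how they were picked, and nothing is read from them. In B16OVA WT against melanocytes 2 of the 8 were called, and 1 without the low-count filter, 5 with all cultured libraries in 1 fit, and 1 to 3 with 1 library left out. Against MCA101OVA WT, 2 became 4 with all cultured libraries in 1 fit, which added Ifngr2 (1.16, adjusted p = 0.00145 from edgeR) and Myom3 (4.54, 0.00414). That fit called 8351 genes over all against melanocytes (from 5127), 7257 against MC38 WT (from 4692) and 7140 against MCA101OVA WT (from 3747), and 8008 were called against MC38 WT without B16OVA WT replicate 5. Without the low-count filter, called genes of the pathway lists numbered 3 in B16 and 5 in B16OVA, against 0. Called neighbours of Ifnlr1 numbered 1 in B16OVA without the filter, with DESeq2 and with the block, and 1 in MC38 without the filter and without the libraries of low length slope (0 to 1 with 1 library left out). The MC38 neighbour is Runx3, too low to be tested otherwise.

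Labels give no shared replicate numbers. With the library set as a replicate block, calls of the 8 genes did not change in number, and Stpg1 was gained in B16OVA. Genes called over all in KO against Ctrl moved with the filter off to 296 (B16OVA, from 177), 145 (MC38, from 78) and 144 (MCA101OVA, from 58). With 2 groups alone in the fit they numbered 2 for MC38, 1 for MCA101OVA, 105 for B16OVA and 22 for B16 (from 116). In MC38 they numbered 125 with the block and 131 with WT in place of Ctrl. Leaving out 1 library gave 74 in B16 (without Ctrl replicate 1), 34 in MCA101OVA (without Ctrl replicate 1), and in MC38 33 (without Ctrl replicate 2) and 27 (leaving out Ctrl replicate 3, and likewise KO replicate 1). Ctrl against WT gave, with the filter off, 40 genes for MC38, 5 for MCA101OVA, 37 for B16OVA and 1 for B16, against 0. Without the libraries of low length slope it gave 12 in B16OVA.

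Judged by size alone, single values moved by less than the replicate SD in 393 of 412 alternatives for KO against Ctrl, whose lost calls of Myom3 (B16) and Ifnlr1 (B16OVA) are not in that count, and in 359 of 382 for Ctrl against WT. Called values kept direction and call, and others moved by less than the SD, in 171 of 192 for the WT contrasts and 840 of 864 for tissues. Among the rest, 10 WT contrast and 17 tissue values lost a call, and 6 and 3 gained one. Myom3 in liver ranged from -0.0748 (without replicate 2) to 1.46 (without replicate 3). Plain CPM, chosen after seeing the data, reversed 9 tissue values: Ifnlr1 in heart (-0.0775), Myom3 in liver (-0.485), Ifnar1 in liver (-0.811) and skin (0.00591), Il10rb in ovary (0.155), stomach (-0.0299) and thymus (0.0342), and Ifngr2 in ovary (0.024) and stomach (-0.115). The cause was not tested. Depth limits Il22ra1 and Myom3, which rest on few counts outside the melanoma KO groups and tissues.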

Other observations

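The 7 libraries of run B176, labelled WT and single for their line, gave further levels of the 8 genes. Ifnlr1 had 1.27 CPM in B16-OVA and 0 to 0.0860 CPM in the MC38 and MCA101 libraries with or without OVA or GFP in their name. Il22ra1 and Myom3 had at most 1 count in each of the 7. Il10rb had 25.9 CPM in B16 and 32.7 CPM in B16-OVA, and Ifngr1 had 38.3 CPM in MC38, 52.6 CPM in MC38-OVA and 41.2 CPM in MC38-GFP.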
